A study of Homo sapiens with 6 samples.

Results

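Very wide open regions, those spanning at least 4000 bp on an autosome, were examined in sorted human embryonic stem cells. They were chosen by width and chromosome only, and numbered 1763 of 114670 autosomal regions and of 118556 regions in all. Together they covered 9024.58 kb, with a median width of 4768 bp, quartiles of 4315 and 5643.5 bp and a maximum of 12080 bp. The samples were cells of the established line WA09, sorted into a GCTM-2highCD9highEPCAMhigh population (high) and a GCTM-2midCD9mid population (mid, which the sample titles call low), with 3 replicates each. GCTM-2 is an antibody to a surface antigen of pluripotent stem cells, and CD9 and EPCAM are surface proteins of the same cells. Both populations came from the same line, and the labels give no genotype or treatment that differed between them besides the sort. Accessibility was measured by FAST-ATAC, a form of ATAC-seq. The comparison asks which regions were more open in the cells with the highest surface marker levels and which in the cells with intermediate levels.

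In ATAC-seq the Tn5 transposase cuts DNA that is not protected by nucleosomes, so that reads pile up at active promoters, enhancers and insulators. A single such element is usually short. A long continuous region arises where several open elements lie next to each other, as at large CpG-island promoters, dense gene clusters and groups of enhancers. Here the width also carries the calling step, since the authors called regions on reads combined across replicates and merged those of both populations.

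The deposited table holds the number of reads of each sample in each region on hg19. Total counts were between 15486251 and 26225539 in the 3 high samples and between 23091028 and 29025274 in the 3 mid samples. Summed over the samples of a group, counts within the regions were 78454407 in mid and 58931825 in high. The part of this difference in which regions were called wide was not tested. The identity of the cells was not checked against marker genes, because no hg19 annotation was used here, and for the same reason regions are given by position without gene names.

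Wide regions were well covered. The median number of reads per wide region was 752, 691 and 1147 in high replicates 1, 2 and 3 and 1631, 1240 and 1330 in mid replicates 1, 2 and 3. The lowest count of any wide region in any sample was 153. All 1763 wide regions therefore passed a filter of more than 1 in CPM (counts scaled to equal library size) in at least 3 samples. The median coefficient of variation between the replicates of a wide region was 8.67% in high and 11.3% in mid, against 17.1% and 15.4% over all autosomal regions.

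Wide regions held a smaller share of the reads in high than in mid. They received 8.80%, 8.83% and 8.68% of the autosomal counts in high replicates 1, 2 and 3, and 11.3%, 10.7% and 10.1% in mid replicates 1, 2 and 3. The groups did not overlap, and the 95% Wilson interval of each share was at most 0.0287 percentage points wide, which covers counting error only. The mean was 8.77% ± 0.0829 (SD, n = 3) in high and 10.7% ± 0.599 (SD, n = 3) in mid. The difference of -1.94 percentage points had p = 0.1 in a two-sided exact permutation test over the 6 samples, the smallest p that 3 against 3 samples allow. It was -2.51, -1.87 and -1.43 points in the same-numbered pairs 1, 2 and 3.

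Counts per kb put wide regions on one scale with narrower ones. The median raw count per kb of a wide region was 148, 136 and 231 in the high samples and 323, 245 and 264 in the mid samples. After TMM scaling this became 8.45, 8.37 and 8.56 CPM per kb in high, and 12.1, 10.6 and 10.1 CPM per kb in mid. Mid replicate 1 had the highest density of all 6 samples, and the lowest mid sample was still above the highest high sample. The means were 8.46 ± 0.0962 CPM per kb (SD, n = 3) in high and 10.9 ± 1.06 CPM per kb (SD, n = 3) in mid.

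The regions closest in size were the 9849 autosomal regions between 2150 and 3999 bp, called moderately wide here. Their median density was 9.25, 9.07 and 9.46 CPM per kb in the high samples and 11.7, 10.1 and 10.2 CPM per kb in the mid samples. Within a sample, the ratio of the median counts per kb of wide over moderately wide regions needs no scaling between samples. It was 0.914, 0.923 and 0.905 in high and 1.04, 1.05 and 0.987 in mid, again without overlap. On the log2 scale the ratio was -0.13 ± 0.0140 in high and 0.04 ± 0.0474 in mid (SD, n = 3 each). The difference was -0.17 with p = 0.1, the smallest possible, in the two-sided exact permutation test. The density of wide regions was thus lower relative to moderately wide regions in every high sample than in any mid sample.

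**Figure D1:**
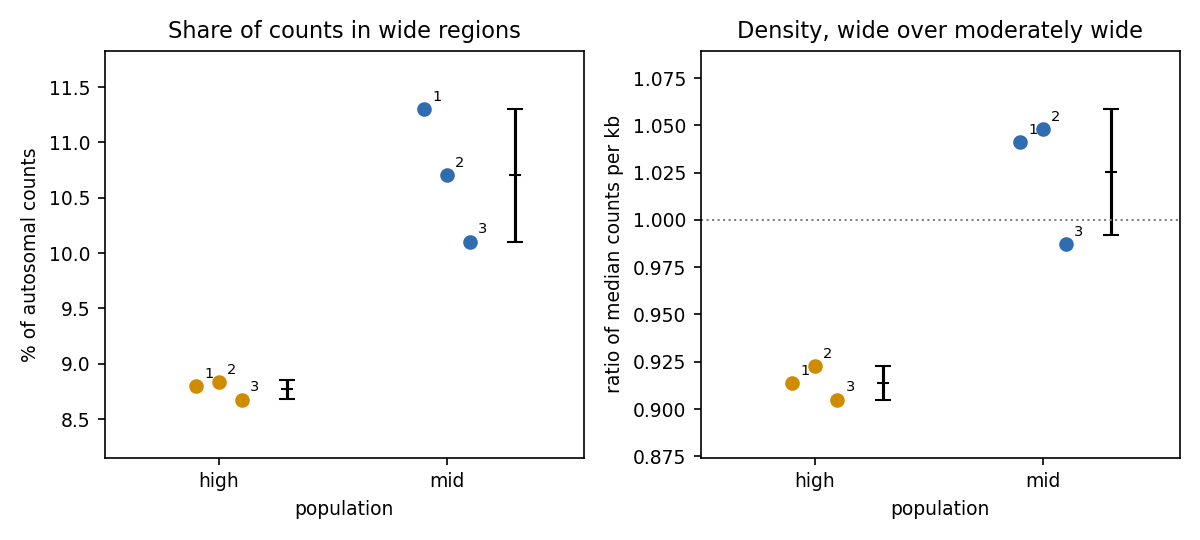
The left panel plots the share of autosomal counts in wide regions (percent), and the right panel the ratio of the median counts per kb of wide over moderately wide regions, with 1 numbered point per replicate and the mean ± SD of 3 samples in black. The 3 high samples lie at 8.68% to 8.83% and below a ratio of 0.93, and the 3 mid samples at 10.1% to 11.3% and above a ratio of 0.98. The vertical axes do not start at 0.

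The quasi-likelihood test of edgeR was fitted over all 118556 regions with the replicate number as a block. By it, 725 wide regions (41.1%) were more accessible in mid and 8 (0.454%) in high when called at 0.01 after Benjamini-Hochberg adjustment. Over all regions, the same test called 3.77% higher in mid and 2.32% higher in high. The remaining 1030 wide regions were not called. Among moderately wide regions, 1889 (19.2%) were called higher in mid and 191 (1.94%) in high. In 725 of the 725 wide mid calls and in 7 of the 8 high calls, each of the 3 pairs moved the way of the call. Over all regions the same held in 4459 of 4472 mid calls and 2736 of 2747 high calls. A test with the replicate block favours such regions, so this agreement is no separate support for the calls. At an unadjusted p under 0.05, 1173 wide regions were higher in mid and 51 in high. The shares over all regions at this threshold were not counted, so these numbers have no background to be read against.

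The changes were small and mostly in one direction. Taken as high over mid, the median log2 fold change was -0.39 over the wide regions, with quartiles of -0.58 and -0.16 and a range from -1.37 to 0.66. It was -0.21 over the moderately wide regions and 0.03 over all autosomal regions. A negative fold change was seen in 1524 wide regions (86.4%), against 71.7% of moderately wide regions and 46.8% of all autosomal regions. The fitted level in mid was at least 1.5 times that in high in 429 wide regions and at least 2 times in 18, whereas high was at least 1.5 times mid in 4. Over all regions, 288 mid calls had a fitted level in mid more than 2 times that in high. The counts at 1.5 times were not taken over all regions. In the same-numbered pairs 1, 2 and 3, the median log2 ratio of high over mid CPM was -0.56, -0.36 and -0.25, so that all 3 pairs had the same sign and differed in size. The 3 mid samples all lay above the 3 high samples in 1096 wide regions (62.2%), against 13.0% of all regions. The reverse held in 45 wide regions (2.55%), against 12.9% of all regions.

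**Figure D2:**
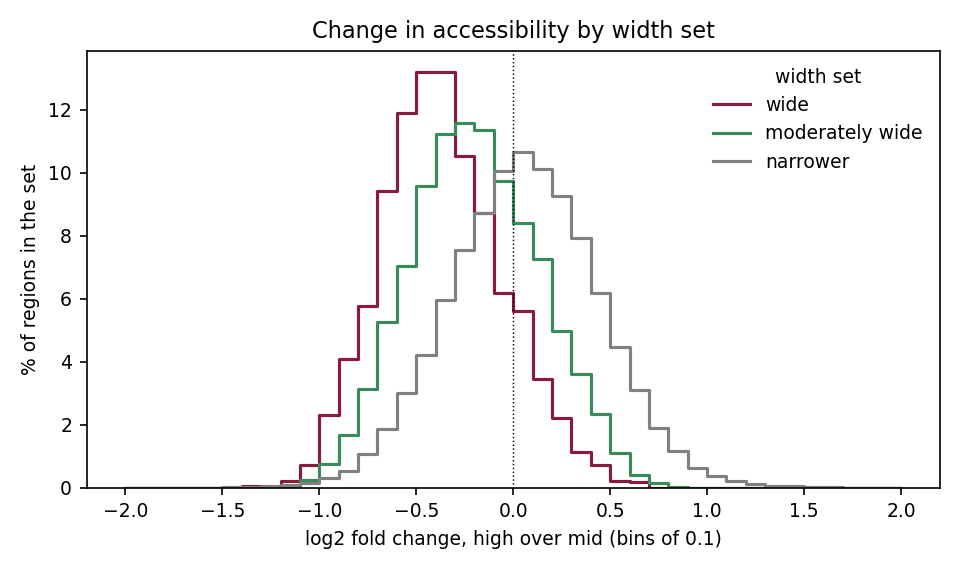
The percent of regions in each bin of 0.1 log2 units is plotted against the log2 fold change (high over mid) for 1763 wide, 9849 moderately wide and 103058 narrower autosomal regions (under 2150 bp), after TMM scaling. The wide regions peak furthest to the left, with a median of -0.39, against -0.21 and 0.06 for the other sets.

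Other scalings with a single factor per sample kept the calls on the mid side. RLE scaling gave 762 mid and 8 high calls among the wide regions, at 4.10% and 2.08% of all regions. Total counts gave 605 mid and 31 high calls, at 2.68% and 4.19% of all regions. Loess offsets on average log2 CPM, which allow the centre to vary with signal, gave 291 mid and 110 high calls, at 2.63% and 3.18% of all regions. Loess offsets on log2 region width centre the change at each width, and so remove by construction any shift that wide regions share. The resulting median of -0.02 is therefore no test of that shift, and the fit shows only which wide regions departed from others of like width. There were 158 such calls towards mid, all among the 725 found after TMM scaling, and 184 towards high, which included the 8 high calls (53.8% of the wide calls were high, against 1.09% after TMM scaling). That fit called 2.44% of all regions higher in mid and 2.74% higher in high.

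The calls also rested on the replicate 2 pair. Without it, 125 wide regions were called higher in mid and 0 in high, at a background of 0.369% and 0.313% of all regions, and 860 and 14 wide regions had an unadjusted p under 0.05 in the edgeR test. The median log2 fold change without that pair was -0.40. Without mid replicate 2 alone the mid count was 122 (0.364% of all regions), and without high replicate 2 alone it was 214 (0.708% of all regions). In both fits the remaining replicate 2 sample stood alone in its block and could not add to the difference between the populations. They therefore do not tell which sample of the pair mattered. With no replicate block, edgeR called 318 wide regions higher in mid and 0 in high (38 at an unadjusted p under 0.05), at 1.11% and 0.236% of all regions. For the counts at an unadjusted p under 0.05, no share over all regions was taken. DESeq2 with the block called 717 wide regions higher in mid and 6 in high, at 3.07% and 0.816% of all regions.

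Within the wide regions, the change grew with width. Of the 1025 regions of 4000 to under 5000 bp, 343 (33.5%) were called higher in mid, with a median log2 fold change of -0.33. Of the 406 regions of 5000 to under 6000 bp it was 191 (47.0%), with a median of -0.43. Of the 306 regions of 6000 to under 8000 bp it was 173 (56.5%), with a median of -0.48. Of the 26 regions of 8000 bp or more it was 18 (69.2%), with a median of -0.66. Below the threshold the share was 24.8% at 3000 to 3999 bp, 16.9% at 2150 to 2999 bp, 7.74% at 1500 to 2149 bp and 1.92% at 1000 to 1499 bp. The shares called higher in high in these classes were 1.25%, 2.22%, 2.86% and 3.55%. At 500 to 999 bp, 0.587% were called higher in mid and 1.90% in high, with a median log2 fold change of 0.10. Up to 499 bp the shares were 0.291% and 0.728%, with a median of -0.13. The 8 high calls fell in the 4000 to under 5000 bp class (6) and the 6000 to under 8000 bp class (2).

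Read density followed a different course in the 2 populations below 8000 bp. It is given as the mean of the 3 sample medians, by class from 2150 to 2999 bp upwards. In high it was 9.35, 9.05, 8.49, 8.43 and 8.30 CPM per kb, and 9.20 over the 26 widest regions. In mid it was 10.6, 10.9, 10.6, 11.5 and 11.2 CPM per kb, and 13.5 over the 26 widest. High thus fell up to the class of 6000 to under 8000 bp, mid rose unevenly, and both were higher in the small widest class. Mid replicate 1 was the highest sample in each of the 4 wide classes, with 11.8, 12.9, 12.6 and 15.9 CPM per kb. Mid replicate 3 was the lowest mid sample in each, with 9.89, 10.6, 10.1 and 12.0 CPM per kb, and remained above the 3 high samples, whose highest value in any wide class was 9.56.

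**Figure D3:**
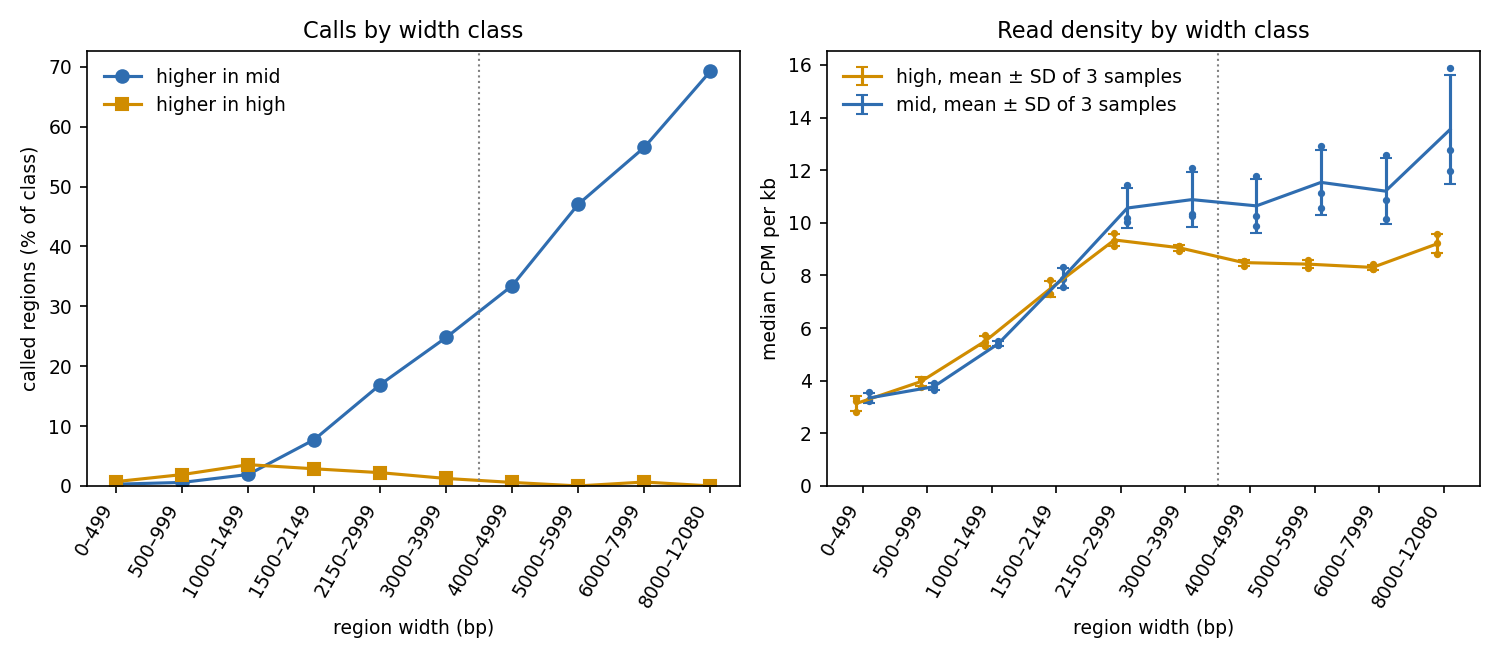
The left panel plots the percent of autosomal regions called higher in mid or in high (TMM scaling, replicate block) by width class, and the right panel the median CPM per kb by sample (points) with the mean ± SD of 3 samples per population (lines and bars). A dotted line marks 4000 bp, and the percent called higher in mid reaches 33.5% just above it and 69.2% in the widest class.

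Wide regions collect more reads than narrow ones, which gives a test more power, so they were also compared with moderately wide regions of like total signal. What part power had in the calls was not tested. At an average log2 CPM of 4 to 5, 21.2% of 250 wide regions were called higher in mid, against 16.4% of 4673 moderately wide regions. The shares were 40.6% of 1044 against 27.4% of 3434 at a log2 CPM of 5 to 6, and 51.8% of 454 against 23.2% of 393 at 6 to 7. The median log2 fold changes in these 3 classes were -0.30, -0.39 and -0.44 for wide regions and -0.20, -0.24 and -0.18 for moderately wide regions. The wide regions thus had the lower median in each of these 3 classes. At a log2 CPM of 7 to 8 there were only 15 wide and 4 moderately wide regions, with medians of -0.70 and 0.04. Regions of like total signal differed in density. In the first 3 classes the median was 6.10, 9.29 and 14.4 CPM per kb for wide regions. It was 8.67, 14.6 and 24.4 CPM per kb for moderately wide regions. Within the wide set, the calls were also counted by density. From the lowest to the highest of 4 classes of CPM per kb, each with 440 or 441 regions, 30.8%, 38.1%, 48.0% and 47.6% were called higher in mid, and the median log2 fold changes were -0.34, -0.38, -0.43 and -0.40.

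The widest region of all was chr1:17017200-17029279 (12080 bp). Its signal was 100.5, 107.0 and 117.8 CPM in high replicates 1 to 3 and 156.6, 150.2 and 132.0 CPM in mid replicates 1 to 3. All mid samples lay above all high samples, with a log2 fold change of -0.43 ± 0.11 (SE) and an adjusted p of 0.00606 in the edgeR test. At chr12:4377576-4387067 (9492 bp) the high samples had 73.4, 74.0 and 69.7 CPM and the mid samples 138.2, 110.5 and 99.2 CPM. This difference, -0.67 ± 0.11 on the log2 scale, had an adjusted p of 4.09e-05.

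Chromosome 19 held 2 of the 10 widest regions. At chr19:2473945-2482486 (8542 bp) the signal was 48.7, 43.6 and 40.3 CPM in high and 146.2, 115.9 and 87.5 CPM in mid. It had the largest fold change and the smallest p-value of all wide regions, with mid 2.64 times high, a log2 fold change of -1.37 ± 0.12 (SE) and an adjusted p of 7.19e-12 in edgeR. At chr19:46141450-46150028 (8579 bp) the high samples lay close together at 68.6, 70.2 and 69.1 CPM, and the mid samples at 156.7, 123.3 and 119.7 CPM (log2 fold change -0.93 ± 0.11, adjusted p = 8.75e-08).

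A further 3 of the 10 widest were called higher in mid without overlap between the groups. They were chr16:54315358-54323959 (69.4, 61.0 and 60.7 CPM in high, 110.5, 110.6 and 97.9 CPM in mid), chr17:7754040-7762573 (70.0, 63.8 and 75.9 against 138.1, 120.8 and 109.2 CPM) and chr10:77158169-77166664 (81.5, 67.7 and 59.1 against 116.4, 101.1 and 87.0 CPM). Their log2 fold changes were -0.74, -0.81 and -0.55.

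The other 3 of the 10 widest regions were not called. In chr14:75743091-75751646 (8556 bp) the high samples had 137.9, 121.6 and 123.9 CPM and the mid samples 173.3, 109.8 and 104.4 CPM. Here mid replicate 1 was the highest of all 6 samples and the other mid samples were the lowest, and the log2 fold change was 0.02 ± 0.11 (adjusted p = 0.925). The same replicate stood apart at chr11:10323662-10332507 (8846 bp), with 175.8 CPM against 113.3 and 113.9 CPM in the other mid samples and 106.1, 96.9 and 114.6 CPM in high (log2 fold change -0.31, adjusted p = 0.0633). At chr1:180197397-180205900 (8504 bp) the groups lay close, at 82.2, 81.3 and 75.3 CPM in high and 101.7, 91.3 and 82.2 CPM in mid, with an adjusted p of 0.244.

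**Figure D4:**
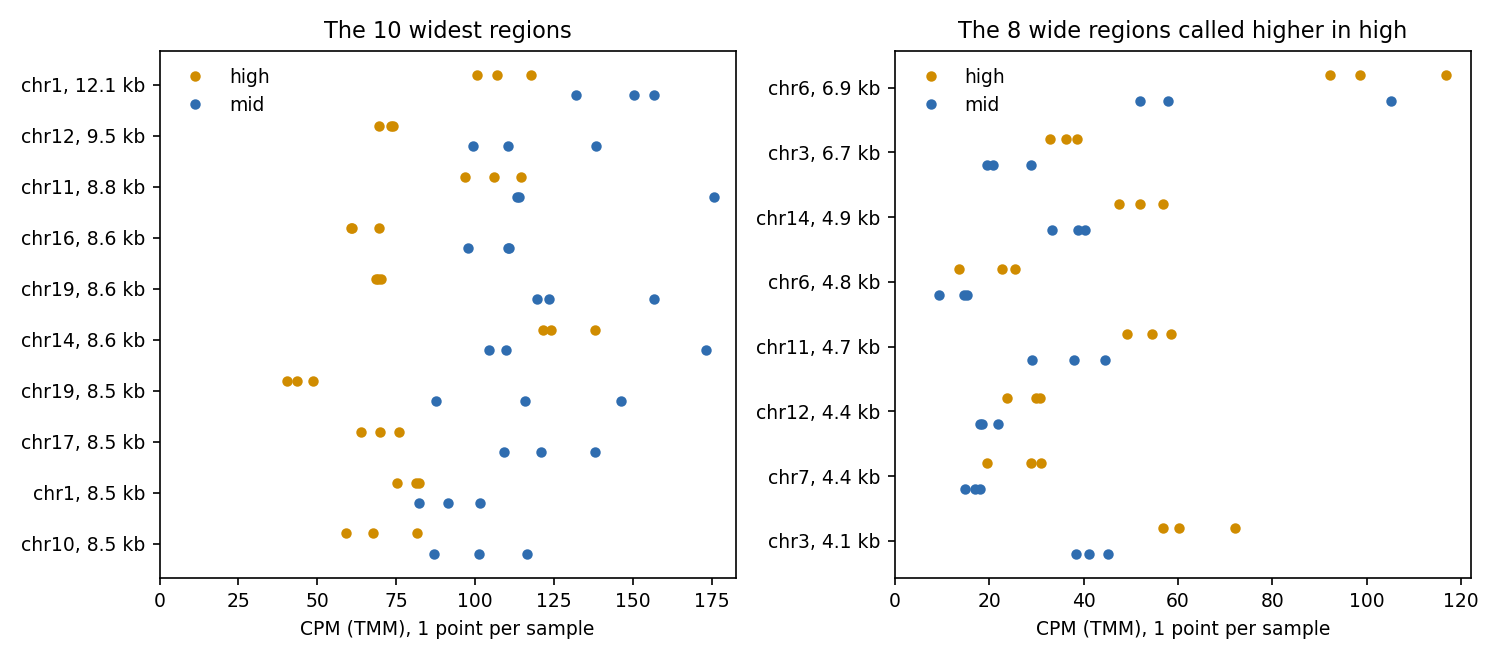
Each point is the TMM-scaled CPM of 1 sample in 1 region, labelled by chromosome and width, for the 10 widest regions (left) and the 8 wide regions called higher in high (right). On the left the groups are separate in the 7 regions called higher in mid. On the right they overlap in 2 of 8 regions, both on chromosome 6.

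The 5 largest changes towards mid were all on chromosomes 19 and 17. After the region on chromosome 19 named above came chr19:18057929-18063804 (5876 bp), with 37.5, 35.7 and 35.1 CPM in high and 91.0, 84.5 and 73.0 CPM in mid (log2 fold change -1.19, adjusted p = 9.75e-10). At chr19:14623223-14631231 (8009 bp) the high samples had 42.2, 34.1 and 30.5 CPM and the mid samples 107.7, 75.5 and 60.9 CPM (log2 fold change -1.17). The region chr19:1247788-1252641 (4854 bp) had the second-smallest p-value, with 53.1, 54.1 and 52.7 CPM in high and 123.1, 127.8 and 107.3 CPM in mid (log2 fold change -1.16, adjusted p = 6.31e-10). In chr17:7552805-7557997 (5193 bp) the values were 24.8, 25.3 and 23.7 CPM in high and 64.1, 51.6 and 49.9 CPM in mid (log2 fold change -1.16). In each of these 5 regions the lowest mid sample lay well above the highest high sample, and mid was more than 2 times high.

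The 8 wide regions called higher in high changed less. The largest changes were at chr3:185627985-185634692 (6708 bp), with 32.9, 36.2 and 38.5 CPM in high and 28.8, 19.4 and 20.7 CPM in mid, and at chr7:99687833-99692203 (4371 bp), with 19.5, 28.8 and 31.0 against 17.0, 18.0 and 14.8 CPM. Both had a log2 fold change of 0.66. The smallest p-value was at chr3:26663242-26667296 (4055 bp), where the high samples had 72.1, 60.2 and 56.9 CPM and the mid samples 38.3, 41.2 and 45.2 CPM (log2 fold change 0.60 ± 0.12, adjusted p = 0.000615 in edgeR). These 3 regions showed no overlap between the groups.

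Another 3 high calls had separate groups at lower fold changes. These were chr11:105479710-105484365 (58.5, 54.5 and 49.3 CPM in high, 44.6, 29.0 and 37.9 CPM in mid, log2 fold change 0.56), chr12:81599929-81604367 (30.8, 30.0 and 23.7 against 18.0, 18.4 and 21.7 CPM, 0.53) and chr14:38676410-38681342 (51.9, 47.4 and 56.9 against 38.8, 33.2 and 40.3 CPM, 0.48). The last 2 overlapped. At chr6:15522072-15526842 the signal was 13.6, 25.5 and 22.6 CPM in high and 9.2, 15.3 and 14.5 CPM in mid, so that replicate 1 was lowest in each group. At chr6:74220481-74227415 (6935 bp) mid replicate 1, at 105.1 CPM, stood above high replicates 1 and 2 at 92.3 and 98.6 CPM, while mid replicates 2 and 3 were at 52.0 and 57.8 CPM and high replicate 3 at 116.8 CPM. None of the 8 was called in the fit without the replicate 2 pair.

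Wide regions differed almost 10-fold in density. The densest, chr13:111363782-111369059 (5278 bp), had 34.4 CPM per kb over the 6 samples, from 154.6, 156.1 and 137.3 CPM in high and 239.7, 201.8 and 199.0 CPM in mid (log2 fold change -0.51, adjusted p = 0.000496). Next were chr11:62606173-62610618 at 31.4, chr15:75742034-75749615 at 30.2, chr5:139778706-139782838 at 29.4 and chr1:144530823-144536706 at 28.4 CPM per kb. Their log2 fold changes were -0.75, -0.64, -0.41 and -0.70, and all but the one on chromosome 5 (adjusted p = 0.0105) were called higher in mid. In all 5 the mid samples lay above the high samples. At the other end were the region chr6:15522072-15526842 described above (3.52 CPM per kb), chr13:92007370-92011943 (3.52) and chr21:46931440-46936168 (3.85). These 3 had positive log2 fold changes of 0.65, 0.41 and 0.42, of which only the first was called.

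The regions next to the width threshold are given as a description. The 3 wide regions just above it were chr9:130328650-130332649 (4000 bp, 9.19 CPM per kb), chr7:142551334-142555336 (4003 bp, 9.40) and chr11:61581378-61585381 (4004 bp, 18.1), with log2 fold changes of -0.49, 0.04 and -0.53. The 3 regions just below were chr15:60295427-60299424 (3998 bp, 12.7 CPM per kb), chr2:74666279-74670276 (3998 bp, 15.9) and chr2:127862122-127866120 (3999 bp, 13.4), with log2 fold changes of -0.45, -0.14 and 0.07.

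Wide regions were unevenly spread over the chromosomes. They made up 3.78% of the regions of chromosome 19 (117 regions), 3.11% of chromosome 17 (127), 2.39% of chromosome 16 (82) and 2.30% of chromosome 22 (43). The lowest shares were 0.810% on chromosome 18 (23 regions), 0.871% on chromosome 13 (31) and 0.926% on chromosome 4 (67). Chromosome 1 had the most wide regions, 194, which was 1.84% of its regions. Chromosomes 16, 17, 19, 20 and 22, which are known for a high density of genes or of G and C bases, together held 23.4% of the wide regions and 13.1% of all autosomal regions.

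The share of wide regions called also differed between chromosomes, as did that of their regions as a whole. On chromosome 19, 109 of 117 wide regions (93.2%) were called higher in mid, with a median log2 fold change of -0.81. Of all regions on chromosome 19, 31.0% were called higher in mid, and their median was -0.47. The counts were 32 of 43 (74.4%) on chromosome 22, 30 of 43 (69.8%) on chromosome 20, 7 of 11 (63.6%) on chromosome 21, 80 of 127 (63.0%) on chromosome 17 and 51 of 82 (62.2%) on chromosome 16. Over all regions of chromosomes 22, 20, 21, 17 and 16, the shares were 14.0%, 8.72%, 5.96%, 11.7% and 8.87%. Chromosome 21 had few wide regions (1.08% of its regions), and the share on chromosome 20 (1.66%) was below that on chromosome 1. No wide region of these 6 chromosomes was called higher in high. The same was true of the 194 wide regions on chromosome 1 and the 133 on chromosome 2, so this was not particular to them. At the other end, 6 of 67 (8.96%) were called higher in mid on chromosome 4, where the median log2 fold change was -0.00 (over all regions of that chromosome 0.498% and 0.24), and 12 of 85 (14.1%) on chromosome 3, where 2 were called higher in high (0.677% of all its regions were higher in mid). The high calls lay on 6 chromosomes.

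Wide regions lay below moderately wide regions on each chromosome. On 22 of 22 autosomes the median log2 fold change of the wide regions was below that of the moderately wide regions, with a difference from -0.32 on chromosome 13 to -0.07 on chromosome 22. The share called higher in mid was above that of the moderately wide regions on 22 of 22. On chromosome 19 the moderately wide values were 77.2% and -0.68. Without chromosome 19, 616 of 1646 wide regions (37.4%) were called higher in mid and 8 in high, with a median log2 fold change of -0.36. The share over all regions without chromosome 19 was not counted. It would also change, since 31.0% of all regions on that chromosome were called higher in mid. When each chromosome was given its own offsets, 647 were called higher in mid and 9 in high, at 2.90% and 1.48% of all regions. After the loess on region width, 66 of the 158 wide mid calls were on chromosome 19, and 27 of the 184 high calls were on chromosome 4. Of all 1763 wide regions, 117 were on chromosome 19 and 67 on chromosome 4. Shares over all regions of these chromosomes were not counted in that fit.

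**Figure D5:**
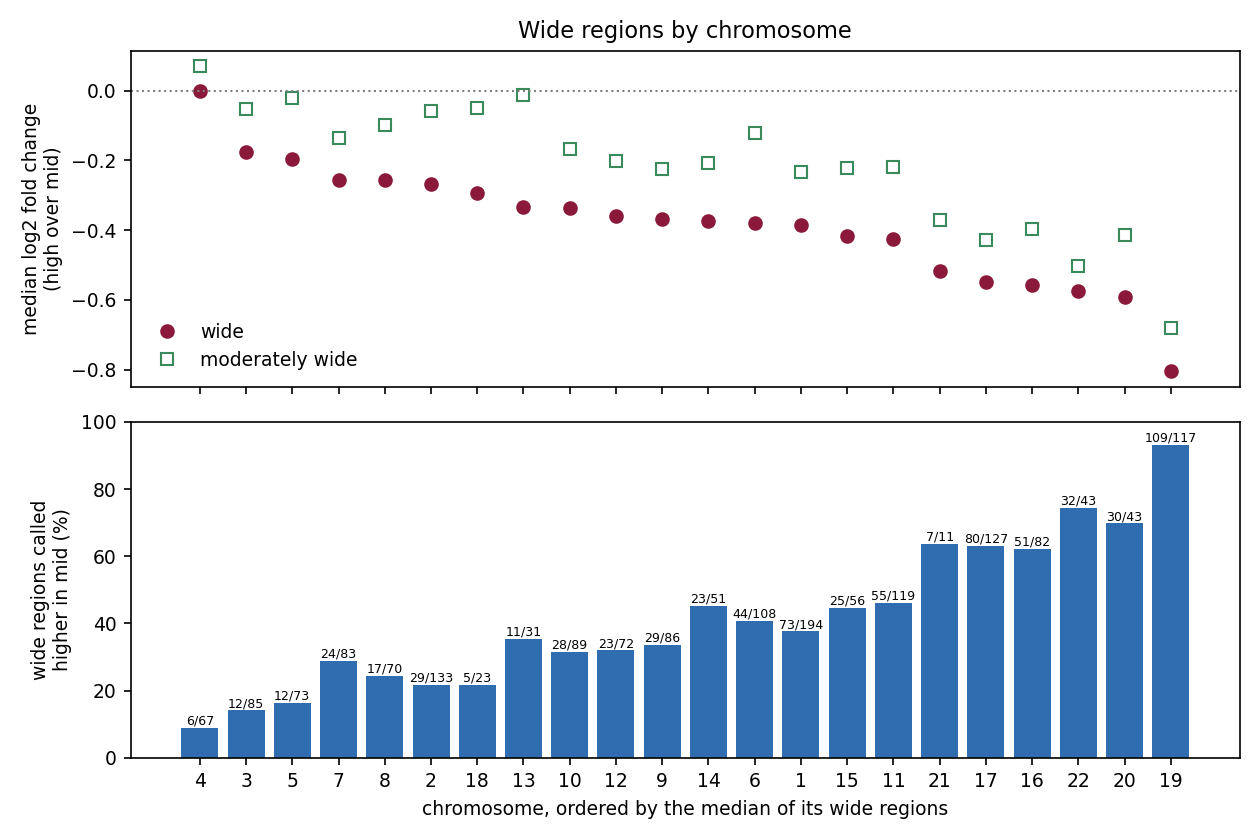
The upper panel plots the median log2 fold change (high over mid) by autosome for wide and moderately wide regions, and the lower panel the percent of wide regions called higher in mid, with the numbers called and in all above each bar (TMM scaling, replicate block). The wide median lies below the moderately wide one on every autosome, from -0.00 on chromosome 4 to -0.81 on chromosome 19.

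Wide regions lay among other open regions. The median distance to the nearest region was 4516 bp for a wide region (quartiles 2278.5 and 8106 bp), 6239 bp for a moderately wide region and 6830 bp for autosomal regions as a whole. A neighbour closer than 1 kb was present for 12.6%, 8.63% and 9.87% of these sets. Within 50 kb there was a median of 7, 6 and 5 other regions. Another wide region lay within 50 kb of 503 wide regions (28.5%). Of these, 288 (57.3%) were called higher in mid and 1 in high, with a median log2 fold change of -0.50. Of the 1260 wide regions without such a neighbour, 437 (34.7%) were called higher in mid and 7 in high, with a median of -0.34.

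Chains of wide regions, each within 50 kb of the next, numbered 213, of which 52 had at least 3 members. The longest chain had 7 members over chr6:26122339-26275630 (153.292 kb), of which 39.966 kb lay in wide regions. Its summed signal was 353, 401 and 401 CPM in high and 675, 536 and 509 CPM in mid, a mean of 385 ± 27.5 against 573 ± 89.1 CPM (SD, n = 3 each). All 7 members had negative log2 fold changes, from -0.77 to -0.40, and 5 were called higher in mid. There were 3 chains of 6 members. At chr1:156628540-156722624 and chr5:139015019-139129019 4 members each were called higher in mid, with fold changes from -0.68 to -0.18 and from -0.67 to -0.15. At chr1:144990970-145114912 1 member was called, the range was -0.47 to -0.24, and the summed signal was 198, 223 and 190 CPM in high and 247, 303 and 234 CPM in mid.

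A list of 7 gene clusters was looked up by hg19 windows set by hand to the nearest 100 kb from general knowledge. The main histone gene cluster on chromosome 6, which encodes replication-dependent core and linker histones, had 17 wide regions among 157 (10.8%), and the chain of 7 lay inside it. Of the 17, 14 were called higher in mid, with a median log2 fold change of -0.61. Of all 157 regions in the window, 48 (30.6%) were called higher in mid, with a median of -0.41. The widest was 8252 bp, and the fold change nearest to 0 was -0.40. Their summed signal was 737, 831 and 817 CPM in high and 1418, 1120 and 1070 CPM in mid, with no overlap. The major histocompatibility complex, which holds antigen presentation genes and many others, had 12 wide regions among 353, of which 9 were called higher in mid (median log2 fold change -0.50). Of all 353 regions there, 53 (15.0%) were called higher in mid, with a median of -0.26. Its summed signal was 570, 581 and 601 CPM in high and 1026, 821 and 799 CPM in mid.

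The HOX clusters encode the transcription factors that set position along the body axis, and they are largely silent in pluripotent cells. The HOXA, HOXB and HOXC windows held 33, 31 and 18 regions and 0 wide ones. Their median log2 fold changes were -0.48, -0.69 and -0.58, and 7, 16 and 9 regions were called higher in mid, so that the change towards mid in these windows was present without wide regions. The HOXD window held 20 regions, with a median of -0.44 and 5 called higher in mid, among them its 2 wide regions. At chr2:176961129-176965813 (4685 bp) the signal was 39.4, 39.1 and 37.6 CPM in high and 54.5, 57.4 and 49.2 CPM in mid (log2 fold change -0.47 ± 0.12, adjusted p = 0.0062 in edgeR). At chr2:176968648-176973622 (4975 bp) it was 29.9, 26.9 and 23.7 CPM in high and 49.9, 45.7 and 33.4 CPM in mid (log2 fold change -0.67 ± 0.13, adjusted p = 0.00021). The groups did not overlap in either. The clustered protocadherins, cell adhesion genes read from many alternative promoters, had 44 regions and 0 wide ones, with a median log2 fold change of -0.14. There was 1 call towards mid (2.27%), against 1.19% over all regions of chromosome 5.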

How the data were processed

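FAST-ATAC libraries of sorted WA09 cells were analysed, 3 replicates per population. The authors used Trimmomatic, BWA (0.7.15 per the labels) with hg19, and Picard against duplicates, and corrected read ends for the Tn5 offset. MACS (1.4.2 per the labels) was run on combined alignments, peaks of high and mid were joined, and blacklisted ones were dropped. What was deposited is the raw count of reads, made with bedtools, per region and sample. Because calling was done on pooled reads, how many replicates hold each region is unknown, and joining neighbouring regions sets part of the width. Starts are given 1 higher than in the table, which was read as counting from 0.

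The quasi-likelihood test of edgeR 4.0.16 (R 4.3.3) was run on the counts (TMM, 118556 regions, no filter, replicate number as a block of 3 levels, Benjamini-Hochberg adjusted p under 0.01 called). CPM are TMM-scaled, and fold changes are high over mid. Alternatives used DESeq2 1.42.0 and limma 3.58.1 (loess, span 0.3), and shares were tested with scipy 1.17.1. The edgeR fit was also run on simulated data, in which 200 wide regions changed by 1 on the log2 scale, some up and some down. It called all 200 and 1 unchanged region. Smaller changes and a shift shared by wide regions were not simulated, so the run says nothing about calls under these. Wide regions were counted after the fit. Replicate numbers come from the sample labels and were taken to pair the samples. Deviations from the group means correlated between same-numbered samples at r = 0.302, 0.191 and 0.234 over all regions. Between other pairs r was -0.257 to 0.0599. Deviations from a mean of 3 samples add up to 0, so a positive value in 1 pair lowers the others by construction. The lower values of other pairs are thus no separate support for the pairing. How the authors coded batch is not given in the sources used here. With the block, the edgeR p-values measure how the difference between the populations varies over these 3 pairs, with information shared between regions. All replicates were of 1 line, so no p-value covers the spread between lines.

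Total counts ran from 15486251 to 29025274 per sample. Regions named by position were the 10 widest; in each direction, among calls whose 3 pairs moved alike, the 5 with the largest change and the 2 with the smallest p; the 5 highest and 3 lowest in CPM per kb; and 3 on each side of the threshold. Beyond this rule all 8 high calls, the chains of at least 6 and the wide HOXD regions are named, chosen after their values were seen. The members, lists and tests were chosen with earlier results of these data known.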

Additional observations from a re-analysis of the deposited data

Results flagged for a closer look

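Wide regions of the X chromosome were outside the comparisons above, which were limited to autosomes. There were 40 of at least 4000 bp, 1.03% of the regions on X, and they were marked because reads there were far above the 3 counts that a count of 0 allows. They held 27495 reads in the sample with the fewest and 57828 in the sample with the most, with a median density of 8.65 CPM per kb. In the same edgeR test, 8 were called higher in mid and 0 in high, with a median log2 fold change of -0.12. That test called 3.77% of all regions higher in mid and 2.32% in high. Of the autosomal wide regions it called 41.1% and 0.454%. Shares over all regions of X were not counted.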

How the results depend on the processing

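The difference in the share of counts and in the within-sample density ratio kept its direction under every alternative run for them, between -2.19 and -1.65 percentage points and between -0.19 and -0.15 on the log2 scale when 1 replicate was left out. The median log2 fold change stayed negative in all alternatives, and moved to -0.14 with loess offsets on average log2 CPM and to -0.0187 with loess offsets on region width, which centre it by construction. Counts of calls moved more. With no replicate block, which ignores the pairing, 0 high and 318 mid regions were called. Total counts gave 31 high regions, loess on log2 CPM 110 high and 291 mid, and loess on width 184 high and 158 mid. Leaving out replicates or single samples gave 0 to 17 high and 122 to 883 mid regions. The background moved too. Without replicates 1, 2 and 3 in turn, 3.66%, 0.369% and 4.04% of all regions were called higher in mid. In high it was 1.41%, 0.313% and 2.88%. An adjusted p under 0.05 gave 22 high and 959 mid regions, with no share over all regions taken. The main fit called 2.32% of all regions higher in high and 3.77% in mid. In it, widths of at least 3000 bp gave 43 high and 1422 mid regions, and of at least 5000 bp 2 and 382. The cause of the other moves was not tested, except that the last 2 settings change how many regions are counted. Offsets per chromosome and leaving out chromosome 19 were chosen after the data were seen. Where a single sample was left out, its same-numbered partner was alone in its block and could not add to the difference between the populations. Each wide region had at least 153 reads in every sample, but the part of depth in which regions were called wide was not tested. With 3 samples per group, the exact permutation test cannot give a p under 0.1.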
